A study of Mus musculus with 12 samples.

Results

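The comparison described here is that of high fat diet against normal chow in the hind leg muscle of αB-crystallin/HspB2 knockout (KO) mice. It uses 6 of the 12 RNA sequencing libraries of the study, chosen by their titles: 3 from KO mice on normal chow and 3 from KO mice on high fat diet, and it covers all genes. All mice were males of the FVB strain, sampled at 22 weeks of age. The KO mice of both diet groups lack Cryab and Hspb2 in every tissue, so the deletion is shared by the groups compared. The littermate wild-type (WT) mice, labelled flox, stand beside them only where a diet difference in KO mice is set against that in WT mice, also with 3 libraries on each diet. The genotype field of KO chow replicate 3 and of KO high fat replicates 1 and 2 conflicts with their titles, as does that of all 3 WT high fat libraries. Nothing in the labels says how the replicates of a group were obtained, so p-values measure only the spread between these samples.

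Skeletal muscle takes up most of the glucose cleared after a meal, and it switches between glucose and fatty acids as fuel. Under chronic fat feeding, adipose tissue grows around and between muscles, and macrophages that take up lipid gather in fat; these cells express a set of genes for lipid handling, lysosomal digestion and matrix breakdown. Fat cells in turn turn down the enzymes that make new fatty acids from carbohydrate. αB-crystallin and HspB2 are small heat shock proteins that hold unfolded proteins and are abundant in muscle.

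The deleted genes followed the titles. Cryab was at 0.845, 1.54 and 1.5 FPKM (a level per length of transcript, scaled to the size of the library) in the KO chow libraries and at 1.75, 1.17 and 1.14 FPKM in the KO high fat libraries, against 412 to 837 FPKM in the 6 WT libraries. Hspb2 was at 0.73, 0.353 and 0.46 FPKM in KO chow and at 0.408, 1.92 and 1.2 FPKM in KO high fat. The KO diet groups overlapped for both genes.

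KO chow replicates 1 and 3 stood apart from the other KO libraries by their lymphocyte genes. The mean log2(FPKM + 1) of 40 B and T lymphocyte genes was 2.48, 0.358 and 2.49 in the KO chow libraries and 0.381, 0.503 and 0.385 in the KO high fat libraries. WT chow replicate 2 was also high, at 2.35, while the other WT libraries lay between 0.304 and 0.508. KO chow replicate 2 was the only KO chow library without this signal. Many differences that shrank or turned when replicates 1 and 3 were left out are given both ways below, but not all of them. In bulk tissue, fewer cells of a type and less RNA per cell cannot be told apart.

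**Figure D1:**
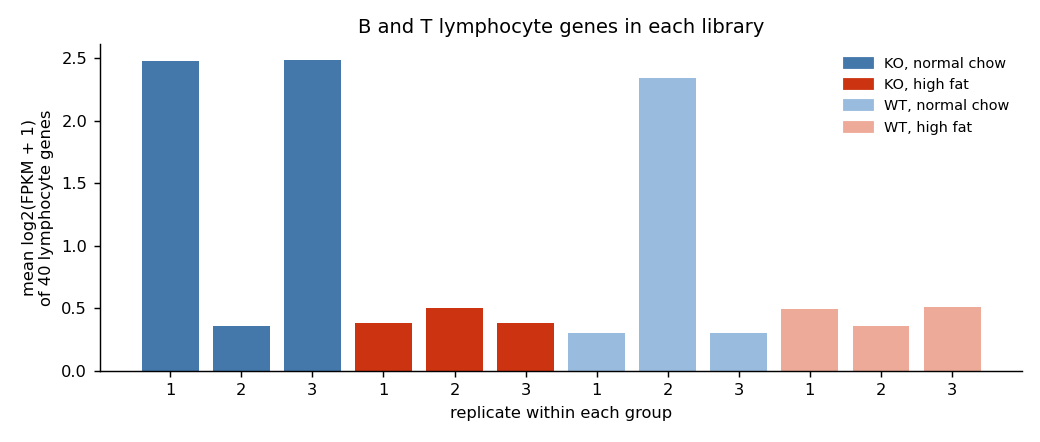
Mean log2(FPKM + 1) of 40 B and T lymphocyte genes (y axis) in each of the 12 libraries, 1 bar a library, ordered by group and replicate. KO chow replicates 1 and 3 stood at 2.48 and 2.49 and WT chow replicate 2 at 2.35, and all 6 high fat libraries stood at 0.508 or lower.

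The muscle markers were present in every library. Ckm or Acta1 led the list in 11 libraries, and the remaining one, KO chow replicate 3, was led by the short RNA Mir324. Acta1 was listed at 0 in KO high fat replicate 2 and at 31266 and 34031 FPKM in the other KO high fat libraries, and Myh4 was listed at 0 in all 6 KO libraries, so these entries were read as listed at 0 and not as levels. Relative depth, from the step between low values, ranged over the KO libraries from 0.986 to 1.32 times that of KO chow replicate 2, and the depth in reads is unknown.

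No gene passed an adjusted p of 0.05 between the diets in KO mice (0% of 11945 genes tested with limma), and the lowest adjusted p was 0.087. At an unadjusted p under 0.05, 784 genes were higher on high fat diet (6.56% of genes tested) and 565 were lower (4.73%). The filter asked for 1 FPKM in 3 of the 12 libraries, and 130 genes passed it only through the KO high fat libraries, 29 of them among the higher genes, while 360 passed only through the KO chow libraries, 111 of them among the lower genes. Such genes had to be high in that group to be tested, so their counts and ranks are descriptions. Among the genes named below outside the lymphocyte and lymph node genes, Elovl6, Ucp1, Acsm3, Pmp2 and H2-Oa are of the second kind. The 3 high fat libraries all lay above the 3 chow libraries for 1280 genes (10.7%) and all below them for 734 genes (6.14%). Among the 565 lower genes, 392 had no overlap. Another 152 (26.9%) had KO chow replicates 1 and 3 above all high fat libraries and replicate 2 not. The same pattern with another pair of chow libraries held for 9 (1.59%) and 10 (1.77%) genes. Over all genes tested, these patterns held for 1433 (12%), 254 (2.13%) and 245 (2.05%) genes in that order. With KO chow replicates 1 and 3 left out, 226 genes were higher (1.89%) and 85 lower (0.712%), with a single chow library left. With the lymphocyte index as a covariate, 514 were higher (4.3%) and 265 lower (2.22%). With replicate 2 left out instead, 1369 genes were higher (11.5%) and 1112 lower (9.31%). Leaving out KO chow replicate 1 gave 443 higher and 261 lower, and leaving out replicate 3 gave 395 and 275. Without KO high fat replicate 3, 515 genes were higher, and without replicate 2, 364 were lower. In WT mice 12 genes passed the adjusted p of 0.05 between the diets (0.1%), and the interaction, which tests whether the diet difference differed between KO and WT mice, passed it for no gene and an unadjusted p under 0.05 for 746 genes (6.25%).

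**Figure D2:**
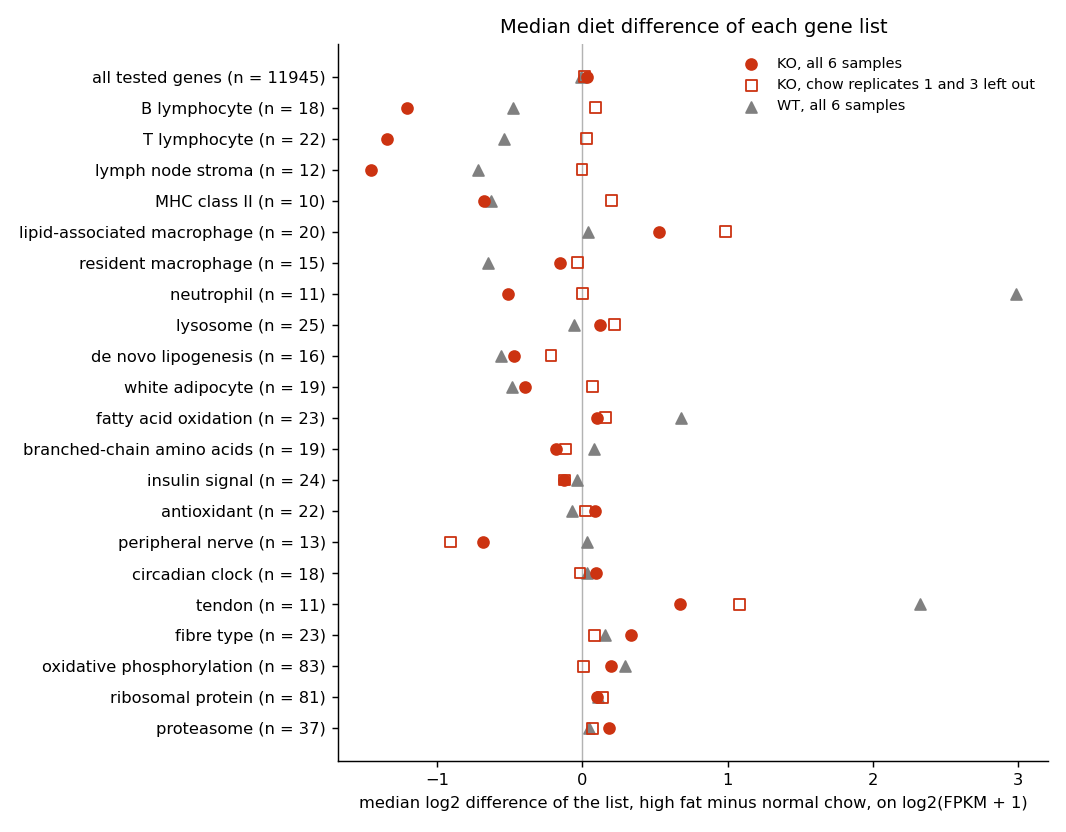
Median log2 difference between high fat diet and normal chow, on log2(FPKM + 1) (x axis), for all tested genes and for 21 gene lists (y axis, with the number of genes tested). Filled circles are KO mice, open squares KO mice with chow replicates 1 and 3 left out, and triangles WT mice. The lymphocyte lists lay under -1 with all KO libraries and near 0 without the 2 chow libraries, which were marked out by these same lymphocyte genes. The lipid-associated macrophage list lay at 0.53 and 0.98 and the nerve list at -0.69 and -0.91.

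Several genes of lipid-associated macrophages were higher in KO mice on high fat diet. Of 20 list members tested, 9 were higher at an unadjusted p under 0.05 and none was lower, and in those 9 the diet groups did not overlap; Mmp12 and Atp6v0d2 passed the filter only through the KO high fat libraries. Over all genes tested, 6.56% were higher and 4.73% lower, and for 10.7% all high fat libraries lay above all chow libraries. The list median was 0.53 on the log2 scale, against 0.03 over all genes tested. In WT mice none of the 20 passed in either direction (4.42% of all genes passed as higher and 3.7% as lower), and the median was 0.04. In the interaction, 7 members passed an unadjusted p under 0.05 (6.25% of all genes did).

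Mmp12, the macrophage elastase that cuts elastin, had the second lowest p of all genes. It stood at 0.114, 0.0153 and 0.29 FPKM in KO chow and at 6.44, 9.91 and 6.28 FPKM in KO high fat. All 3 high fat libraries were far above all 3 chow libraries, and the mean FPKM was 54 times that on chow. On log2(FPKM + 1) the difference was 2.89 ± 0.41 (SE, adjusted p = 0.087), and without KO chow replicates 1 and 3 it was 3.05. The WT libraries gave 0.189, 0.606 and 0.175 FPKM on chow and 0.195, 1.34 and 4.18 FPKM on high fat, so the WT groups overlapped, and the interaction was 1.99 (unadjusted p = 0.0055, adjusted p = 0.593).

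Gpnmb, a glycoprotein of lipid-laden macrophages, was at 3.43, 2.39 and 3.82 FPKM on chow and at 12.2, 19.3 and 12.9 FPKM on high fat. Trem2, the lipid receptor of these macrophages, was at 2.06, 2.01 and 2.17 FPKM on chow and at 8.26, 13.4 and 7.75 FPKM on high fat. In both genes KO high fat replicate 2 was the highest library and the groups were well apart. The ratio of mean FPKM was 4.61 for Gpnmb and 4.71 for Trem2, and both had an adjusted p of 0.16. Lgals3, which encodes the sugar-binding protein galectin-3, was at 12.5, 10.3 and 16.7 FPKM on chow and at 40, 65 and 42.2 FPKM on high fat. Its ratio of means was 3.72, again with replicate 2 highest.

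Several of these genes serve the lysosome. Atp6v0d2, a subunit of the proton pump that acidifies lysosomes and the osteoclast border, was at 0.303, 0.0797 and 0.37 FPKM on chow and at 1.92, 3.87 and 3.59 FPKM on high fat (log2 difference 1.69 ± 0.25, adjusted p = 0.087). Ctsl, the protease cathepsin L, was at 74.9, 61.8 and 66.8 FPKM on chow and at 90.7, 135 and 107 FPKM on high fat. Lipa, the acid lipase that frees fatty acids from stored esters, was at 11.2, 8.47 and 11.5 FPKM on chow and at 16.1, 22.7 and 17.7 FPKM on high fat. None of these groups overlapped, and the ratio of means was 12.5, 1.64 and 1.81 in that order. Cstb, an inhibitor of cathepsins, and Plin2, a coat protein of lipid droplets, were 1.87 and 1.49 times higher by mean FPKM. For Plin2 the margin between the groups was small, from 45.0 FPKM in KO chow replicate 1 to 47.5 FPKM in KO high fat replicate 1. Among 25 lysosome genes, 4 were higher at an unadjusted p under 0.05 (6.56% of all genes were) and none was lower (4.73%). The difference was positive in 22 of the 25, and in 6689 of the 11945 genes tested.

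The remaining 11 members of the lipid-associated macrophage list did not pass, and 3 of the 20 tested had a negative difference. Lpl, Apoe and Spp1 differed by -0.22, -0.43 and -0.27, with overlap. Without KO chow replicates 1 and 3 these were 0.03, 0.13 and -0.57. Ctsd, the lysosomal protease cathepsin D and the most abundant member, was at 380, 431 and 456 FPKM on chow and at 444, 524 and 465 FPKM on high fat, with overlap. Of 15 resident macrophage genes, 1 was higher and 2 lower at an unadjusted p under 0.05, against 6.56% and 4.73% of all genes. Emr1, which encodes the macrophage marker F4/80, was at 4.49, 3.32 and 3.96 FPKM on chow and at 5.52, 8.35 and 5.37 FPKM on high fat. Timd4, a receptor for dying cells on resident macrophages, was at 7.53, 2.92 and 8.01 FPKM on chow and at 1.92, 2.17 and 1.72 FPKM on high fat, so its difference was carried mostly by KO chow replicates 1 and 3. It was -1.19 with all libraries and -0.42 without those 2.

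**Figure D3:**
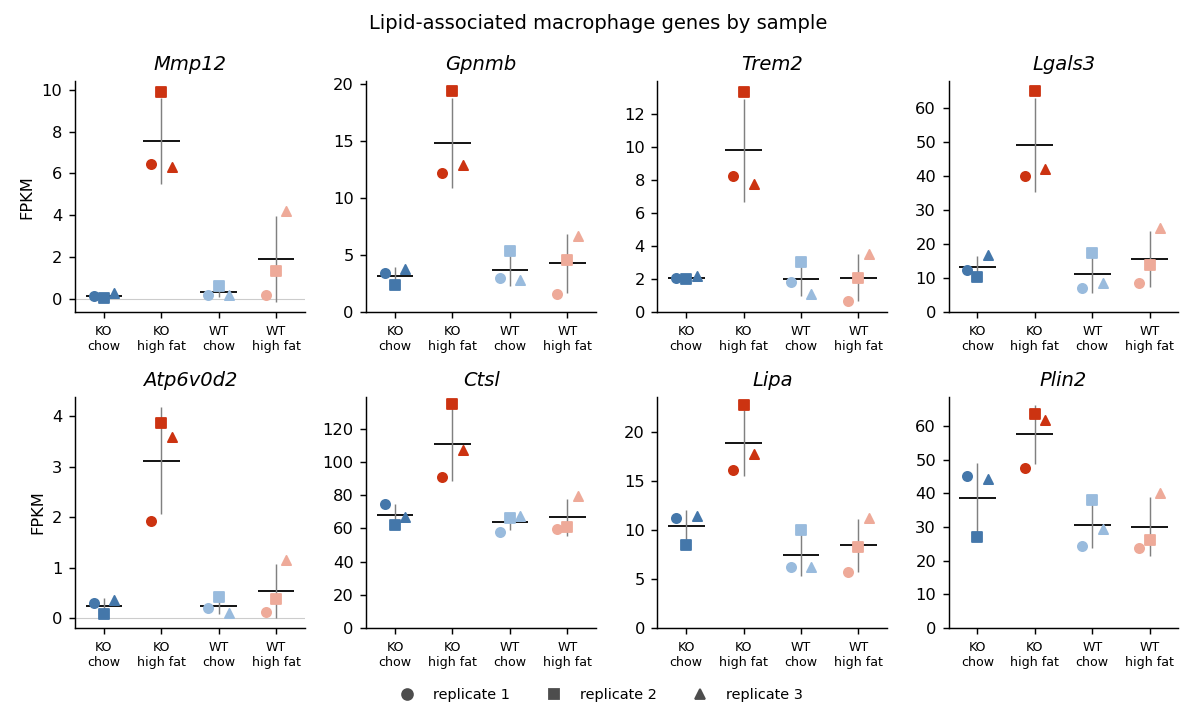
FPKM (y axis) of 8 lipid-associated macrophage genes in the 4 groups (x axis), with 1 point a library shaped by replicate, the mean as a horizontal bar and the SD as a vertical line. All 3 KO high fat libraries lay above all 3 KO chow libraries in each gene, and KO high fat replicate 2 was the highest KO library in each.

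The stretch before the Mmp12 start site is shown because this gene had the largest difference within the macrophage list and carries a binding motif of AP-1, a factor of activated macrophages. The sequence is from RefSeq on GRCm38.p6, chr9:7347124-7347373 on the plus strand, 5′ to 3′ up to the base before one of 2 listed start sites, with the motif in capitals.

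Mmp12: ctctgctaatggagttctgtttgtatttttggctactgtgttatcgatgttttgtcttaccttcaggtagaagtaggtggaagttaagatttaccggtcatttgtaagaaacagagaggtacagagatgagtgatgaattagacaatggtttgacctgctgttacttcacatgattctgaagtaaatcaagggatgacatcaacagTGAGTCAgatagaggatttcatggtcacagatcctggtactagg

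The motif searched was TGACTCA on both strands, which reads TGAGTCA on the other strand and ends 37 bases before the start site here. Of the 21 list members, 16 had a promoter window of 300 bases, and 3 of these held the motif (Gpnmb, Itgax and Mmp12). It was present in 5.95% of the 27025 genes with a window. The match is a description of the letters only.

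Il1rn, Saa3, Ubd, Ear11 and Dpep2 had low p-values, and all 5 passed the filter only through the KO high fat libraries, so their ranks by p are no support. Il1rn, the antagonist of the interleukin 1 receptor, had the lowest p of all genes, at 0.21, 0.168 and 0.319 FPKM on chow and 1.27, 1.69 and 1.53 FPKM on high fat. Saa3, an acute phase protein, was at 0.256, 0 and 0.0867 FPKM on chow and at 2.43, 7.25 and 6.44 FPKM on high fat. Ubd, a ubiquitin-like protein induced by inflammatory cytokines, was at 0.513, 0.0552 and 0.844 FPKM on chow and at 8.43, 14.5 and 15.4 FPKM on high fat. The high fat libraries were above the chow libraries in all 3 genes. The log2 difference was 1.02 for Il1rn, 2.42 for Saa3 and 3.22 for Ubd, with adjusted p of 0.087, 0.087 and 0.16, and Ubd had the largest upward difference of the genes that met the naming rule. Ear11, a secreted ribonuclease of macrophages and eosinophils, was at 0.234, 0.315 and 0.558 FPKM on chow and at 1.84, 1.83 and 1.21 FPKM on high fat. Dpep2, a membrane dipeptidase, was 0.89 higher on the log2 scale, and its high fat values of 1.16, 1.68 and 1.18 FPKM all exceeded its chow values. Of 18 interferon-stimulated genes tested, Ubd alone passed an unadjusted p under 0.05, so the list as a whole stayed close to the 6.56% of all genes, and its median was -0.01.

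Genes named by the rule but outside these lists were mostly low in chow muscle, and Oxtr, Tph2, Slc5a7 and Ncan passed the filter only through the KO high fat libraries. Oxtr, the oxytocin receptor, was at 0.48, 0.152 and 0.226 FPKM on chow and at 2.27, 4.2 and 6.88 FPKM on high fat. Tph2, the neuronal enzyme of serotonin synthesis, was at 0.0976, 0.128 and 0.0733 FPKM on chow and at 1.67, 3.09 and 2.68 FPKM on high fat. Slc5a7, the choline transporter of cholinergic nerve endings, was at 0.096, 0.107 and 0 FPKM on chow and at 1.44, 1.96 and 2.85 FPKM on high fat. In each case all high fat libraries were well above all chow libraries, and the levels stayed under 7 FPKM. Ncan, a brain proteoglycan, was 11.5 times higher by mean FPKM, from 0.0278 to 0.133 FPKM on chow to 1.01 to 1.24 FPKM on high fat. The non-coding RNA 1700047G03Rik was 2.51 higher on the log2 scale and 1100001G20Rik 1.81 higher, with 1100001G20Rik also 1.86 higher in WT mice.

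Of 16 de novo lipogenesis genes tested in KO mice, 8 were lower with high fat feeding at an unadjusted p under 0.05 (4.73% of all genes were) and none was higher, with a list median of -0.47. WT mice showed 7 lower (3.7% of all genes) and none higher, with a median of -0.56, and no member passed an unadjusted p of 0.05 in the interaction. A p that misses this threshold does not show equal responses. Without KO chow replicates 1 and 3, the median was -0.22 and 1 member, Acaca, still passed.

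Acaca, which makes malonyl-CoA from acetyl-CoA and sets the pace of the pathway, was at 15.3, 9.5 and 24.6 FPKM on chow and at 4.08, 3.15 and 3.13 FPKM on high fat. Elovl6, which lengthens palmitate, was at 2.81, 1.46 and 4.69 FPKM on chow and at 0.732, 0.419 and 0.344 FPKM on high fat. Fasn, the fatty acid synthase, was at 98.5, 55.7 and 171 FPKM on chow and at 29.6, 22.2 and 20.1 FPKM on high fat. None of these groups overlapped, KO chow replicate 3 was the highest library in each and replicate 2 the lowest of the chow libraries. The log2 difference was -1.89 for Acaca (adjusted p = 0.16), -1.34 for Elovl6 (adjusted p = 0.23) and -2.01 for Fasn (adjusted p = 0.43). Without KO chow replicates 1 and 3 it was -1.24, -0.73 and -1.2 in that order. Thrsp, a nuclear protein that accompanies lipogenesis, was at 172, 78.5 and 230 FPKM on chow and at 38.3, 35.8 and 30.7 FPKM on high fat. Its difference went from -2.04 to -1.15 without KO chow replicates 1 and 3. Acly, which supplies cytosolic acetyl-CoA, was at 22.9, 12.7 and 41.5 FPKM on chow and at 10.6, 10.7 and 9.98 FPKM on high fat. For Acly the value of chow replicate 2 was close to the high fat values, and the difference went from -1.08 to -0.26 without replicates 1 and 3. Scd1, the desaturase and the most abundant member, was at 1319, 735 and 776 FPKM on chow and at 657, 375 and 520 FPKM on high fat, without overlap but with an unadjusted p of 0.449.

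White adipocyte genes were mixed. Of 19 tested, 1 was higher (6.56% of all genes) and 4 were lower (4.73%) at an unadjusted p under 0.05. The list median was -0.4, and 0.07 without KO chow replicates 1 and 3. In 7 of the 19, those libraries lay above all high fat libraries and replicate 2 did not, a pattern held by 12% of all genes. The summed level of the list was 8128, 4615 and 6788 FPKM in KO chow and 4026, 4737 and 5128 FPKM in KO high fat. On this sum KO chow replicate 2 was between the lowest and highest KO high fat libraries and replicates 1 and 3 were above all of them; the part of fat cell content in the lipogenic differences was not tested. Cfd, the adipokine adipsin, was at 1196, 577 and 1329 FPKM on chow and at 112, 59.9 and 98.5 FPKM on high fat, with every high fat library far below every chow library. Its difference was -3.46 (adjusted p = 0.39), or -2.71 without KO chow replicates 1 and 3, and in WT mice it was -3.3. Mest, a gene linked to fat cell expansion, went the other way, at 7.49, 4.44 and 2.66 FPKM on chow and 17.1, 19.6 and 23.2 FPKM on high fat, while in WT mice it differed by -0.14. Lep, the hormone leptin, was at 42.6, 15.1 and 11.8 FPKM on chow and at 69.0, 63.3 and 93.5 FPKM on high fat; it was chosen after its values were seen, and its unadjusted p was 0.135.

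Cidea and Ucp1 were high in the lymphocyte-rich libraries. Cidea, a lipid droplet protein of brown fat, was at 49.9, 12.5 and 45.4 FPKM on chow and at 2.32, 2.66 and 1.98 FPKM on high fat. Ucp1, the uncoupling protein of brown fat, was at 7.5, 0.746 and 6.67 FPKM on chow and at 0.142, 0.0277 and 0 FPKM on high fat. In both genes KO chow replicate 2 was the lowest chow library, and WT chow replicate 2, also rich in lymphocyte genes, stood at 29.8 FPKM for Cidea and 16.2 FPKM for Ucp1 while the other WT chow libraries stayed under 1 FPKM. Without KO chow replicates 1 and 3 the log2 difference was -2.03 for Cidea and -0.73 for Ucp1, against -3.26 and -2.2 with them.

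**Figure D4:**
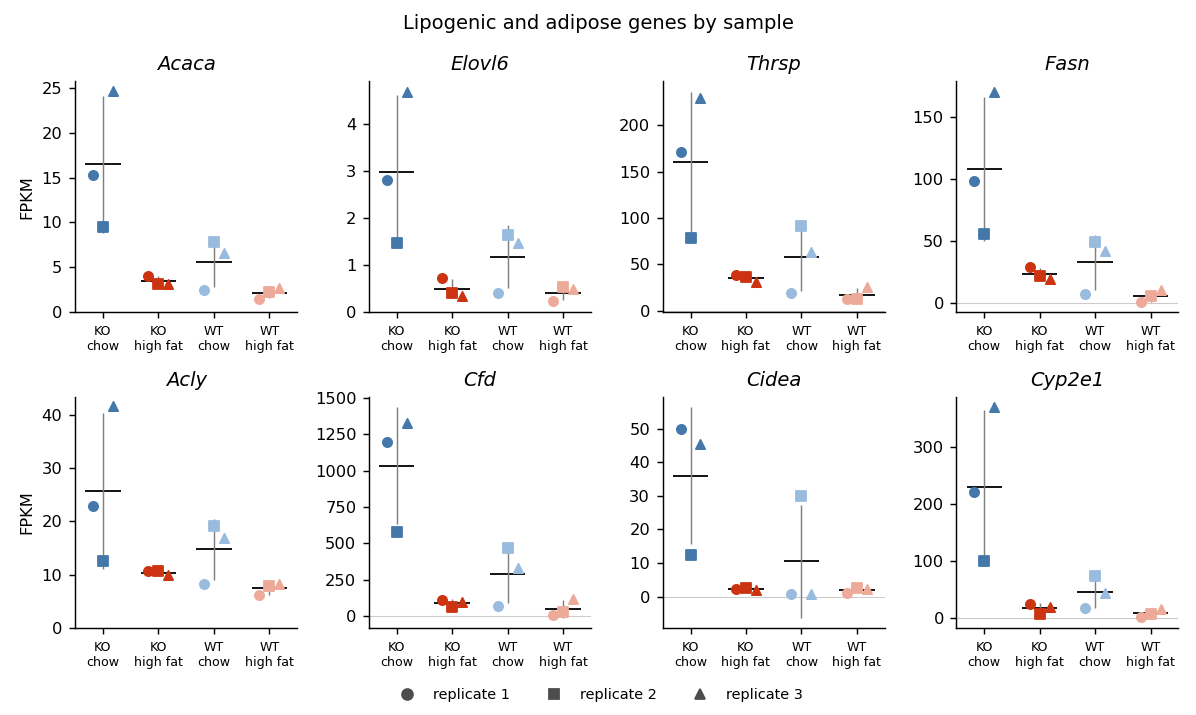
FPKM (y axis) of 5 lipogenic genes, 2 adipocyte genes and Cyp2e1 in the 4 groups (x axis), with 1 point a library shaped by replicate, the mean as a horizontal bar and the SD as a vertical line. The 3 KO high fat libraries lay below the 3 KO chow libraries in each gene, and KO chow replicate 2 was the lowest KO chow library in each.

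The promoter stretches of Fasn and Thrsp are shown because both genes were lower on high fat diet in KO mice, and they carry CCAAT boxes, a common promoter element of lipogenic genes. Both are from RefSeq on GRCm38.p6 and end at the base before the start site, Fasn at chr11:120824548-120824797 and Thrsp at chr7:97417551-97417800, each on the minus strand and printed 5′ to 3′ with CCAAT or ATTGG in capitals.

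Fasn: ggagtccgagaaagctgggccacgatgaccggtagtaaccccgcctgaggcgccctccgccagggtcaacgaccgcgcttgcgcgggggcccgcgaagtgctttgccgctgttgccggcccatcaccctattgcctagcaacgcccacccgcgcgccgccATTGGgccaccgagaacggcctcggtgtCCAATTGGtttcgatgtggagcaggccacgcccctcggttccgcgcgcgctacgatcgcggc

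Thrsp: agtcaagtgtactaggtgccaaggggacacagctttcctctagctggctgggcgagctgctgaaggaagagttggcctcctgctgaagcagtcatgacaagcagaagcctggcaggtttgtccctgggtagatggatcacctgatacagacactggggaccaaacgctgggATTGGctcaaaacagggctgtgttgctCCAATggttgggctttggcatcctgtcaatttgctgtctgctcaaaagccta

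In Fasn, 2 of the matches overlap each other on opposite strands. CCAAT or ATTGG was present in 10 of the 12 lipogenic genes that had a window of 300 bases, and in 41.1% of all genes with a window.

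Cyp2e1, which oxidises ethanol and ketones, had the largest downward difference under the naming rule, at 221, 100.2 and 369 FPKM on chow and 24.6, 7.39 and 18.7 FPKM on high fat. The groups were far apart, the difference was -3.65 ± 0.78 (SE, adjusted p = 0.18), and in WT mice it was -2.68. Acsm3, which activates medium-chain fatty acids, was at 5.37, 1.72 and 6.77 FPKM on chow and at 0.176, 0.0488 and 0.0767 FPKM on high fat. Its difference was -2.22 with all libraries and -1.31 without KO chow replicates 1 and 3. Gsta3, a glutathione transferase, was at 4.47, 2.95 and 6.75 FPKM on chow and at 0.855, 1.11 and 1 FPKM on high fat. Its difference was -1.47 (adjusted p = 0.087), and -0.99 without KO chow replicates 1 and 3. Prodh, which starts proline breakdown, was at 10.9, 8.42 and 8.79 FPKM on chow and at 5.85, 3.97 and 4.55 FPKM on high fat. In these 4 genes no high fat library reached a chow library, and in all 4 KO chow replicate 2 was the lowest of the chow libraries. Pck1, which makes the glycerol backbone of fat in fat cells, and Ces1f, a carboxylesterase, were 5.21 and 6.17 times lower by mean FPKM, and their log2 differences went from -2.34 to -1.7 and from -2.05 to -1.21 without KO chow replicates 1 and 3. Of 22 antioxidant genes tested, 3 were higher (6.56% of all genes) and 4 lower (4.73%) at an unadjusted p under 0.05. Among the lower ones was Gpx3, the secreted glutathione peroxidase, at 275, 204 and 225 FPKM on chow and 127, 145 and 181 FPKM on high fat. The Gpx3 difference went from -0.63 to -0.45 without KO chow replicates 1 and 3. Nqo1, a quinone reductase, was 0.53 higher on the log2 scale, and 0.22 without KO chow replicates 1 and 3. Gsta4, another glutathione transferase, differed by -0.42, and by -0.37 without them.

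Lymphocyte genes had the largest list medians below 0, and these rested on KO chow replicates 1 and 3. Of 18 B lymphocyte genes, 11 were lower at an unadjusted p under 0.05 (4.73% of all genes were) and none was higher, with a median of -1.21. Of these 18 genes 14 passed the filter only through the KO chow libraries, as did 20 of the 22 T lymphocyte genes. Of the 12 lymph node stroma genes 5 did, 4 of them lower, so the counts are descriptions. KO chow replicates 1 and 3 were also marked out by the mean of these same B and T lymphocyte genes. For the B and T lymphocyte lists, the pattern counts and the medians without those libraries are therefore no independent evidence. In 15 of the 18, replicates 1 and 3 lay above all high fat libraries and replicate 2 did not, a pattern held by 12% of all genes tested. The T lymphocyte list had 14 of 22 lower with a median of -1.35 and 18 with that pattern, and the lymph node stroma list 8 of 12 with a median of -1.46 and 9 with it. With the 2 libraries left out, the medians were 0.09, 0.03 and -0.0028 in that order. The summed level of the B lymphocyte list was 124, 10.7 and 123 FPKM in KO chow, 12.9, 17.2 and 13 FPKM in KO high fat, and 8.39, 107 and 9.48 FPKM in WT chow.

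The same pattern held in single genes. Cd79a, a signal chain of the B cell receptor, was at 19.4, 0 and 19.1 FPKM on chow and at 0.48, 0.405 and 0.0433 FPKM on high fat. Glycam1, a ligand of lymph node vessels for homing lymphocytes, was at 19.5, 0 and 34.3 FPKM on chow and at 0, 0.0783 and 0 FPKM on high fat. Ccl19, which draws T cells into lymph nodes, was at 37.8, 1.66 and 38.9 FPKM on chow and at 1.24, 2.02 and 2.19 FPKM on high fat. In all 3 genes KO chow replicate 2 fell within or below the high fat values. Slpi, a protease inhibitor of mucosae and lymph nodes, had the largest difference of this pattern, -3.3, and it was -0.04 without replicates 1 and 3. The other genes of this pattern under the naming rule were Igj, Ly6d, Cd79b, Ptprcap, Marco and Pou2af1, and their differences lay between -0.05 and 0.27 without those libraries. Ltb, a cytokine that shapes lymph nodes, was at 22.9, 0.745 and 18.4 FPKM on chow and at 0.243, 0.295 and 0.346 FPKM on high fat; its groups did not overlap, yet the difference went from -2.85 to -0.43 without them. Ikzf3, a transcription factor of lymphocytes, went from -1.2 to -0.1. All 10 MHC class II genes tested had the pattern, though 4 of them passed the filter only through the KO chow libraries. Their median of -0.68 became 0.2 without KO chow replicates 1 and 3. Cd74, the invariant chain, was at 248, 67.8 and 241 FPKM on chow and 81.5, 130 and 95.3 FPKM on high fat.

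Of the 4 T lymphocyte genes without that pattern, Cd28, the costimulatory receptor of T cells, was the one that still passed an unadjusted p under 0.05 without KO chow replicates 1 and 3. It was at 3.65, 3.87 and 3.51 FPKM on chow and at 1.69, 1.81 and 2.28 FPKM on high fat, so KO chow replicate 2 was the highest library. The difference was -0.68 with all libraries (adjusted p = 0.27) and -0.74 without KO chow replicates 1 and 3. In WT mice it was -1.28.

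Fatty acid oxidation genes differed little between the diets in KO mice. Of 23 genes tested, 2 were higher (6.56% of all genes) and 1 was lower (4.73%) at an unadjusted p under 0.05, with a median of 0.1. Without KO chow replicates 1 and 3 the median was 0.16. In WT mice 22 of the 23 were higher (4.42% of all genes), with a median of 0.68. In the interaction 16 passed an unadjusted p under 0.05 (6.25% of all genes did), although none passed an adjusted one. Decr1, which removes double bonds during oxidation, was at 57.3, 54.0 and 63.5 FPKM in KO chow and at 69.7, 71.5 and 77.9 FPKM in KO high fat. In WT mice it was at 54.3, 54.7 and 50.6 FPKM on chow and at 117, 88.4 and 91.2 FPKM on high fat. Neither genotype showed overlap, and the interaction was -0.55. Slc27a1, a fatty acid transporter of the muscle membrane, was at 57.0, 40.8 and 75.9 FPKM in KO chow and at 35.3, 37.0 and 45.3 FPKM in KO high fat, with overlap and a difference of -0.51. That difference was carried by KO chow replicates 1 and 3, and it was -0.064 without them. In WT mice it was 1.01 higher, and the interaction with all libraries was -1.52 (unadjusted p = 0.000175, adjusted p = 0.408). Fabp3, the fatty acid carrier of muscle, was at 384, 421 and 993 FPKM in KO chow and at 731, 1076 and 965 FPKM in KO high fat, with KO chow replicate 3 inside the high fat range. The KO difference of Fabp3 went from 0.75 to 1.1 without KO chow replicates 1 and 3, and that of Decr1 from 0.32 to 0.43. Of 15 PPAR target genes 1 was higher (6.56% of all genes) and 1 lower (4.73%) at an unadjusted p under 0.05. Ehhadh, a peroxisomal oxidation enzyme of that list, was lower without overlap, at 7.86, 5.88 and 9.67 FPKM on chow and 4.4, 3.38 and 3.97 FPKM on high fat (difference -0.82, adjusted p = 0.16).

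Neutrophil genes were not higher on high fat diet in KO mice, unlike in WT mice. In KO mice 1 of 11 was lower (4.73% of all genes) and none higher (6.56%) at an unadjusted p under 0.05, with a median of -0.52. In WT mice 10 of 11 were higher (4.42% of all genes), with a median of 2.99. In 5 of the 11 the KO difference was carried by KO chow replicates 1 and 3, a pattern held by 12% of all genes. The KO median was 0.0013 without them. All 11 passed an unadjusted p under 0.05 in the interaction with all libraries (6.25% of all genes did) and none an adjusted one. S100a9, a subunit of the neutrophil protein calprotectin, was at 42.5, 5.22 and 16.0 FPKM in KO chow and at 14.8, 2.07 and 2.19 FPKM in KO high fat, with overlap. In WT mice it was at 1.09, 7.61 and 2.37 FPKM on chow and at 378, 39.9 and 148 FPKM on high fat, and the interaction was -6.71 (unadjusted p = 0.000426, adjusted p = 0.408). The KO difference of S100a9 went from -1.63 to -0.21 without KO chow replicates 1 and 3. S100a8, its partner, was -0.79 in KO and 5.41 in WT mice. Mmp9, a gelatinase stored in neutrophil granules, was the member that was lower in KO mice, with a difference of -0.9.

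Of 19 genes of branched-chain amino acid breakdown, 6 were lower in fat-fed KO mice at an unadjusted p under 0.05 (4.73% of all genes were) and none was higher, and 6 passed it in the interaction (6.25%). Without KO chow replicates 1 and 3, 2 were lower (0.712%). Aldh6a1, which acts late in valine breakdown, was at 77.4, 72.5 and 67.3 FPKM on chow and at 60.5, 47.4 and 56.3 FPKM on high fat. Bcat2, the muscle transaminase of the first step, was at 44.1, 41.6 and 41.3 FPKM on chow and at 37.1, 33.8 and 33.4 FPKM on high fat. In both genes the groups did not overlap and the chow libraries lay close together. Ivd and Mccc1, enzymes of leucine breakdown, were -0.35 and -0.4 on the log2 scale, and in WT mice the differences of these 4 genes lay between -0.05 and 0.14. Without KO chow replicates 1 and 3, Aldh6a1 was -0.41 and Bcat2 -0.25, though Mccc1 was -0.15.

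Of 24 insulin signal genes, 5 were lower (4.73% of all genes) and none was higher at an unadjusted p under 0.05, and none was lower at that p without KO chow replicates 1 and 3. Pik3r1, the regulatory subunit of phosphoinositide 3-kinase, was at 17.6, 14.1 and 14.2 FPKM on chow and at 9.97, 8.92 and 9.16 FPKM on high fat. Foxo1, a transcription factor that insulin restrains, was at 10.2, 9.64 and 10.4 FPKM on chow and at 8.65, 5.51 and 6.35 FPKM on high fat. The groups did not overlap in either gene, with differences of -0.65 and -0.52 (adjusted p = 0.36 and 0.35). Slc2a4, the insulin-responsive glucose transporter GLUT4 and the most abundant member, was at 202, 277 and 198 FPKM on chow and at 230, 187 and 236 FPKM on high fat, with overlap.

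Of 13 peripheral nerve genes tested in KO mice, 5 were lower on high fat diet (4.73% of all genes) and 1, Slc5a7, was higher at an unadjusted p under 0.05, and in 10 all high fat libraries lay below all chow libraries (6.14% of all genes). With the lymphocyte index as a covariate, 10 were lower (2.22% of all genes were) and 1 was higher (4.3%). The median was -0.69, and -0.91 without KO chow replicates 1 and 3. Cnp, an enzyme of myelin-forming cells, was at 15.9, 12.9 and 13.5 FPKM on chow and at 9.68, 10.7 and 7.97 FPKM on high fat (difference -0.54, adjusted p = 0.36). Pmp2, a protein of peripheral myelin, was at 1.59, 2.0 and 0.888 FPKM on chow and at 0.686, 0.474 and 0.264 FPKM on high fat. Cdh19, a cadherin of Schwann cells, was at 1.62, 1.91 and 1.38 FPKM on chow and at 0.78, 1.08 and 0.835 FPKM on high fat. No overlap was seen in the 3 genes, and KO chow replicate 2 was the highest library for Pmp2 and Cdh19 and the lowest chow library for Cnp. In WT mice the list median was 0.03, and the summed level of the list in WT chow replicate 3 was 512 FPKM against 117 and 123 FPKM in the others. The summed list was 420, 479 and 306 FPKM in KO chow and 252, 209 and 164 FPKM in KO high fat.

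A few circadian clock genes were higher on high fat diet in KO mice. Of 18 tested, 5 were higher (6.56% of all genes) and none was lower at an unadjusted p under 0.05, the median over the list was 0.1, and 4 passed the same threshold in the interaction (6.25%). Bhlhe41, a repressor in the clock loop, was at 12, 14.2 and 13.3 FPKM on chow and at 23.2, 19.0 and 23.9 FPKM on high fat. Dbp, a clock output factor, was at 42.9, 38.4 and 31.0 FPKM on chow and at 51.7, 61.4 and 79.9 FPKM on high fat. Nr1d1, the repressor Rev-erbα, was at 26.3, 23.8 and 29.7 FPKM on chow and at 34.5, 47.0 and 64.0 FPKM on high fat. These groups did not overlap, and the differences were 0.69, 0.76 and 0.81 (adjusted p = 0.16, 0.36 and 0.39). Cry2, a core repressor, was 0.33 higher, or 0.23 without KO chow replicates 1 and 3, and Gm129, now called Ciart, 0.68 higher with overlap. Without KO chow replicates 1 and 3, 4 of the 18 passed as higher (1.89% of all genes did), and the median was -0.017. The hour of tissue collection is not given in the sources used here.

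**Figure D5:**
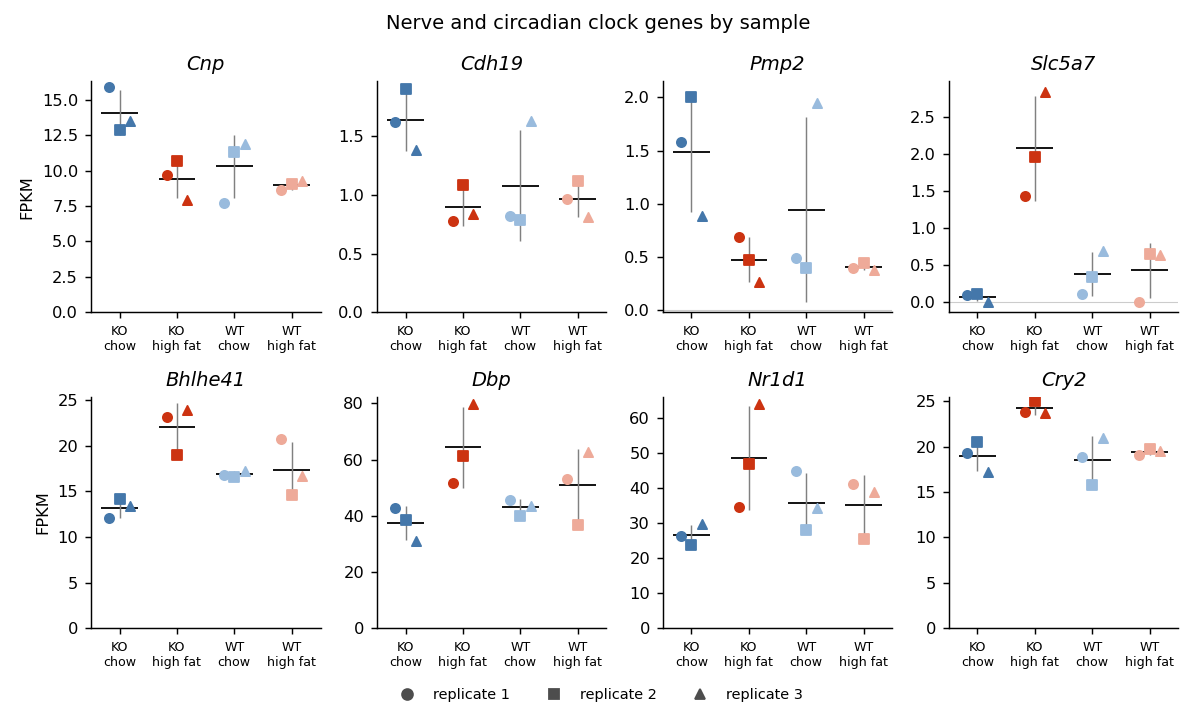
FPKM (y axis) of 4 nerve genes and 4 circadian clock genes in the 4 groups (x axis), with 1 point a library shaped by replicate, the mean as a horizontal bar and the SD as a vertical line. Cnp, Cdh19 and Pmp2 lay lower and Slc5a7, Bhlhe41, Dbp, Nr1d1 and Cry2 higher in all 3 KO high fat libraries than in all 3 KO chow libraries.

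The promoter stretches of Bhlhe41 and Ciart are shown because they hold the E-box CACGTG, which clock activators bind. Bhlhe41 was higher in KO mice on high fat diet without overlap. Ciart, chosen after its values were seen, had a positive difference with overlap. Both are from RefSeq on GRCm38.p6, Bhlhe41 at chr6:145865421-145865670 and Ciart at chr3:95882229-95882478, each on the minus strand, 5′ to 3′ up to the base before the start site, with the E-box in capitals.

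Bhlhe41: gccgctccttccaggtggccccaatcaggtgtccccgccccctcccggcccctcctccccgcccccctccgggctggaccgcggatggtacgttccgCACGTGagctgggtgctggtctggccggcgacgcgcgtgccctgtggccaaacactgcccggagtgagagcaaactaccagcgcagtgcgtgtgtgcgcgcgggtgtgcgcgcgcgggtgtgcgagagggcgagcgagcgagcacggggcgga

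Ciart: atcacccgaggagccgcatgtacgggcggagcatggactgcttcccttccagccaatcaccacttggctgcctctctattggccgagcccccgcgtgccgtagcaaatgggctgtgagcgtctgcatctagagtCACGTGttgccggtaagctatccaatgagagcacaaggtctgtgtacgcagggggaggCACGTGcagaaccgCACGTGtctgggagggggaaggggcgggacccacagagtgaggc

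CACGTG reads the same on both strands. Of the 19 clock genes, 16 had a window of 300 bases and 5 of these held the motif (Bhlhe41, Ciart, Cry1, Per1 and Tef), against 8.09% of all genes with a window. Cry1 and Per1 did not pass an unadjusted p under 0.05 between the diets, and Tef was at 85.1, 103 and 79.8 FPKM on chow and 117, 95.2 and 109 FPKM on high fat, with overlap. The B lymphocyte list was searched for the octamer ATGCAAAT, which 1 of 13 genes with a window held (Blnk) against 1.97% of all genes with a window. The octamer was in none of 16 T lymphocyte genes, the E-box in 3 of 16 macrophage genes and TGACTCA in 1 of 12 lipogenic genes.

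Of 23 fibre type genes, 4 were higher (6.56% of all genes) and none was lower at an unadjusted p under 0.05, and none passed without KO chow replicates 1 and 3. Mylpf, the fast myosin light chain, was at 9308, 12390 and 8006 FPKM on chow and at 14050, 14340 and 13860 FPKM on high fat. Casq1, the calcium store protein of fast fibres, was at 1108, 1386 and 826 FPKM on chow and at 1587, 1576 and 1622 FPKM on high fat. Both groups were without overlap, KO chow replicate 2 was the chow library nearest to the high fat ones, and the differences of 0.53 and 0.56 became 0.19 and 0.2 without KO chow replicates 1 and 3. The fibre type median went from 0.34 to 0.08. Pvalb, the calcium buffer of fast fibres, was 0.5 higher, and 0.17 higher without them.

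Of 83 oxidative phosphorylation subunits 1 was higher and 1 lower, of 81 ribosomal protein genes 6 were higher and none lower, and of 37 proteasome subunits 3 were higher and none lower at an unadjusted p under 0.05, against 6.56% higher over all genes. In 21, 26 and 15 members of these lists in that order, all high fat libraries lay above all chow libraries, against 10.7% of all genes. The medians were 0.19, 0.1 and 0.18, and 0.0091, 0.14 and 0.069 without KO chow replicates 1 and 3. Among 11 tendon genes 2 were higher (6.56% of all genes) with a median of 0.67. In WT mice 10 were higher (4.42% of all genes) with a median of 2.33. Tnmd, a membrane protein of tendon cells, was at 2.1, 1.73 and 4.95 FPKM on chow and at 10.5, 5.36 and 5.02 FPKM on high fat, with a narrow gap between the groups.

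Of the 20 genes that the study placed at the top of this diet comparison, 16 passed the filter on low values, and of these 8 were higher and 7 lower at an unadjusted p under 0.05. These genes were picked from these same libraries, so the counts are no independent evidence of direction. Of the 8 higher genes 7 passed the filter only through the KO high fat libraries, and of the 7 lower genes 6 only through the KO chow libraries. The 8 higher genes had no overlap between the groups and remained higher without KO chow replicates 1 and 3, when 8 still passed. None of the lower genes passed without those libraries. Ms4a1, the B cell surface protein CD20, was -2.05 with all libraries and 0.04 without them.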

How the data were processed

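Libraries from proximal hind leg muscle (RNeasy extraction, TruSeq kit, paired-end HiSeq2000) were processed by the authors and deposited as FPKM per gene symbol, 1 table a library. The submitters' processing notes name TopHat2 2.0.8b, Cuffdiff 2.1.1 and mm10; other settings are not given in the sources used here. The unit FPKM is read from the values and these tools. Each table had 23179 rows and 22923 symbols, and the highest-mean row was kept for repeated symbols. The count test planned for count tables was not used, because the files hold FPKM.

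Samples were grouped by title. Genes with FPKM of at least 1 in at least 3 of 12 samples (11945) were taken to log2(FPKM + 1), which understates changes of low genes, and fitted with limma 3.58.1 (R 4.3.3, variance trend, 4 group means, 8 residual degrees of freedom), with Benjamini-Hochberg adjustment. Unadjusted p-values in the text are from this fit. SE is that of the fit. Lists are described by counts and medians, without set tests. The members and lists were chosen with earlier results of these data known. Genes named were Cryab and Hspb2, the 10 with the lowest p, the 10 largest differences each way (unadjusted p under 0.05, mean of at least 1 FPKM over the 6 KO samples, no overlap), the 10 largest differences downwards carried by KO chow replicates 1 and 3, up to 4 members of a list by p with its most abundant one, and the genes the study put at the top. Ctsl, Cstb, Lipa, Lpl, Apoe, Spp1, Gm129, Cry1, Per1, Lep and Pgk1 fall outside this rule and were chosen after their values were seen. Some genes that the rule names are not reported here. Tested on simulated data for this comparison over 11945 genes, the fit called 25 of 50 genes changed by 0.5 log2 and 44 of 50 at 1. It called 48 of 50 at 2, 49 of 50 at 3, and 5 of 11745 unchanged genes. The simulated noise was independent between libraries, without the split of KO chow replicate 2 from replicates 1 and 3. Changes were planted only in genes with a mean log2(FPKM + 1) above 1. The counts therefore do not measure how many changes would be called in the real libraries.

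Alternatives were a pseudocount of 0.1, no filter, only the KO groups, the replicate number as a block, samples left out, a lymphocyte covariate, median-of-ratios size factors, quantile normalization and robust moderation. Promoter sequences came from RefSeq (GRCm38.p6), whose table held 20303 of the 22923 symbols. Tables were joined and summarised with Python 3.11.15 (NumPy 2.4.6, pandas 2.3.3) and drawn with matplotlib 3.10.9.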

Additional observations from a re-analysis of the deposited data

Results flagged for a closer look

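Pgk1, a glycolytic enzyme, differed in opposite directions in the genotypes. In KO mice it was at 524, 664 and 536 FPKM on chow and at 761, 721 and 837 FPKM on high fat, a log2 difference of 0.43. In WT mice it was at 957, 712 and 741 FPKM on chow and at 701, 614 and 635 FPKM on high fat. Every KO high fat library lay above every KO chow library, and every WT high fat library below every WT chow library. KO chow replicate 2 was the chow library nearest to the KO high fat ones. The KO median of 25 glycolysis and glycogen genes went from 0.24 to -0.065 without KO chow replicates 1 and 3. The interaction had an unadjusted p of 0.0032 in limma and did not pass after adjustment. Of the 11945 genes tested, 56 had such opposite patterns without overlap, 37 of them with the KO mice higher on high fat.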

How the results depend on the processing

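No gene passed the adjusted p between the diets in KO mice with all libraries, and 6 did with no filter on low values, 7 with only the KO groups, 3 with the lymphocyte covariate and 9 with quantile normalization. Leaving out single replicates gave 0 to 4 such genes, 395 to 1369 higher and 261 to 1112 lower at unadjusted p, where 4 came without KO chow replicate 2. Without both KO chow replicates 1 and 3, 226 were higher and 85 lower. With the lymphocyte covariate 514 were higher and 265 lower, and with no filter 1025 were lower. The interaction passed for 1 gene with no filter and for 0 under each other setting in which it was fitted. The replicate block gave 0 genes past the adjusted p, 589 higher and 386 lower at unadjusted p, and 0 in the interaction; the correlation of deviations between same-numbered KO libraries was -0.242, -0.295 and -0.11, so the numbers were not taken as pairs. Without both chow libraries the sign turned for Cryab (-0.12), Glycam1 (0.036), Igj (0.056), Ccl19 (0.068), Cd79a (0.37), Cd79b (0.27), Ptprcap (0.17), Marco (0.072), Pou2af1 (0.12), Ms4a1 (0.043), Cd74 (0.56) and S100a8 (0.54). With the covariate it turned for Cd79a (0.22), Cd79b (0.19), Ptprcap (0.022), H2-Oa (0.0096), Cd74 (0.59), Per1 (0.048) and S100a8 (0.76). The covariate is the mean of the B and T lymphocyte genes, Cd79a and Cd79b among them, so the turns of Cd79a and Cd79b are no independent evidence. Leaving out single replicates also turned genes that were near 0 throughout, Cryab (-0.11 to 0.12), Slc2a4 (-0.13 to 0.11), Cry1 (-0.083 to 0.024) and Per1 (-0.14 to 0.069). The cause of these changes was not tested. The depth in reads is unknown, so the precision of values under 1 FPKM is limited and not quantified.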
